A study of Mus musculus with 10 samples.

Results

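H3K4me3 and H3K27me3 peaks were compared with each other in untreated neural stem and progenitor cells of the mouse embryonic forebrain. The members were all peaks on chromosomes 1 to 19 in the control lists of the 2 marks, 16714 H3K4me3 peaks and 25338 H3K27me3 peaks. They made up 42052 of the 273422 peaks in the 8 lists of the series. An H3K4me3 peak was called bivalent when at least 1 bp of it lay under an H3K27me3 peak, which held for 4791 peaks. Cells came from the E13.5 forebrain, grew in medium with 20 ng/ml each of EGF and FGF (epidermal and fibroblast growth factor), and received water for 24 h (control). Chromatin was immunoprecipitated without crosslinking, with 1 library per mark, and per the labels the control antibodies came from Abcam for H3K4me3 and from Active Motif for H3K27me3. H3K27ac and H3K9cr, a histone crotonylation, were measured in the same control cultures, and sister cultures received 10 mM crotonate for 24 h. With 1 library per mark there is no replicate error, no test and no p-value, and the 95% intervals are exact Clopper-Pearson intervals that cover counting error only. Each library came from a whole culture, so overlapping peaks can also come from different cells or alleles.

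H3K4me3 is placed at active or poised promoters by the Set1 and MLL (Trithorax) methyltransferases, mostly over CpG islands. H3K27me3 is placed by Polycomb repressive complex 2, is bound by the Cbx proteins of Polycomb repressive complex 1, and marks genes held silent. Promoters with both marks were described in embryonic stem cells, where they lie at genes of development, and in neural progenitors such promoters are known at regulators of other lineages and of neuronal differentiation.

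Promoter sequences are given for the gene with the strongest pair of marks (Mto1), for 1 gene from each way in which the marks overlapped (Fgfr3, Egfr and Notch1), and for 1 gene with H3K27me3 alone (Spag6), which was chosen for contrast. Each is the 250 bases before the gene start in RefSeq on GRCm38.p6, read 5′ to 3′ on the strand of the gene, with every CpG in capitals. The Mto1 sequence lies at chr9:78447960-78448209 on the plus strand, the Fgfr3 sequence at chr5:33721474-33721723 on the plus strand, and the Egfr sequence at chr11:16751953-16752202 on the plus strand. The Notch1 sequence lies at chr2:26503823-26504072 on the minus strand and the Spag6 sequence at chr2:18698772-18699021 on the plus strand.
Mto1: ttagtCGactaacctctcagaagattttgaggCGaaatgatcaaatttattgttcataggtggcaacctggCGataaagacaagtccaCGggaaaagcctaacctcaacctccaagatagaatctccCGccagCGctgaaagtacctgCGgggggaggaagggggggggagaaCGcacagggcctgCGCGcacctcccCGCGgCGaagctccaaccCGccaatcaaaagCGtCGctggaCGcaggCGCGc
Fgfr3: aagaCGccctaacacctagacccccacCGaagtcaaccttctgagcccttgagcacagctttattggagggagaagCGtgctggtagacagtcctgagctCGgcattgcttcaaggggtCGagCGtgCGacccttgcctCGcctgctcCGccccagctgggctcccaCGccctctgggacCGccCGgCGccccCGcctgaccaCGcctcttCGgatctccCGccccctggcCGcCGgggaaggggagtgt
Egfr: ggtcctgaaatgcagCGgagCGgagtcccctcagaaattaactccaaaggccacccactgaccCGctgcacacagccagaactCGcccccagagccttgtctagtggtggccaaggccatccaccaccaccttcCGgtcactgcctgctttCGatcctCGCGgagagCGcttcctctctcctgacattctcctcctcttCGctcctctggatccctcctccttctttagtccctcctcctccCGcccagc
Notch1: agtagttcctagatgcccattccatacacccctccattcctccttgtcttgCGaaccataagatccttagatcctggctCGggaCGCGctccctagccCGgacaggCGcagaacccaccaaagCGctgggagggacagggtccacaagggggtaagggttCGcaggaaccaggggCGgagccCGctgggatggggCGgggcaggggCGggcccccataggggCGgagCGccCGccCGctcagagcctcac
Spag6: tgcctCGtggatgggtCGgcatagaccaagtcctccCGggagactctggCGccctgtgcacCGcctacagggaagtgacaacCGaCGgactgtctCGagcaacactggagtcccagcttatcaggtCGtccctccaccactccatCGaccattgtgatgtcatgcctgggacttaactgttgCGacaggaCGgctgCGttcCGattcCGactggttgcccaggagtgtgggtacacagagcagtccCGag
The Mto1 and Fgfr3 sequences hold 19 CpG each, the Egfr sequence 11, and the Notch1 and Spag6 sequences 16 each, so this H3K27me3-only promoter was not poor in CpG. It was not typical of its state, as 655 promoters with H3K27me3 alone had a median of 8 CpG in 300 bases (upper quartile 15). The marks lay differently on these sequences. At Mto1, which encodes a mitochondrial tRNA-modifying protein, the H3K4me3 peak (78447696 to 78449240) spanned the whole window, and the H3K27me3 peak (78439536 to 78447716) ended upstream of it. At Fgfr3, a receptor for fibroblast growth factors, the H3K27me3 peak (33720667 to 33724968) reached past both edges of the H3K4me3 peak (33721489 to 33724426). At Egfr, the receptor for the epidermal growth factor in the medium, a short H3K27me3 peak (16752255 to 16752640) began just downstream of the printed bases, inside a long H3K4me3 peak (16751681 to 16756053). This H3K27me3 peak was weak, at 3.25-fold and stronger than only 14.9% of its list. At Notch1, a receptor that maintains progenitors, H3K27me3 (26503245 to 26503978) took in the start-proximal bases of the window and lay inside the H3K4me3 peak (26501068 to 26504475). At Spag6, a protein of the sperm axoneme, H3K27me3 (18694033 to 18706692) spanned the window with no H3K4me3 peak.

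Bivalent peaks were a minority of both lists. Of the H3K4me3 peaks, 4791 of 16714 were bivalent (28.7%, 95% interval 28.0 to 29.4). Of the H3K27me3 peaks, 4920 of 25338 touched H3K4me3 (19.4%, 18.9 to 19.9). The shared sequence came to 4.28 Mb, which was 16.4% of the 26.2 Mb under H3K4me3 and 9.49% of the 45.1 Mb under H3K27me3. Most overlaps joined single peaks: 4341 bivalent H3K4me3 peaks had 1 partner and 450 had more, up to 5, while 282 H3K27me3 peaks touched more than 1 H3K4me3 peak, up to 8. Near misses were fewer than overlaps, since 617 of the 11923 other H3K4me3 peaks (5.17%, 4.78 to 5.59) had H3K27me3 within 1000 bp and 1912 (16.04%, 15.4 to 16.7) within 5000 bp.

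The overlap took 3 forms. H3K27me3 covered the whole H3K4me3 peak in 2433 cases (50.8%, 49.4 to 52.2). It covered the summit but not the whole peak in 1042 cases (21.7%, 20.6 to 22.9), and it left the summit free and lay on a flank in 1316 cases (27.5%, 26.2 to 28.8). Among the 2358 peaks not fully covered, H3K27me3 crossed 1 edge in 1616 (68.5%, 66.6 to 70.4), both edges in 311 (13.2%, 11.8 to 14.6) and no edge, lying in the interior, in 431 (18.3%, 16.7 to 19.9). The median share of the H3K4me3 peak under H3K27me3 was 68.0% when the summit was inside and 29.1% when H3K27me3 flanked it. Read from the H3K27me3 list, 2189 of the 4920 touching peaks held a whole H3K4me3 peak (44.5%, 43.1 to 45.9), 2127 overlapped in part and 604 (12.3%, 11.4 to 13.2) lay wholly inside an H3K4me3 peak.

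Widths differed between the forms. Fully covered H3K4me3 peaks were narrow, with a median of 878 bp (quartiles 569 and 1259), summit-inside peaks had 1381 bp (923 and 1960), flanked peaks 1724.5 bp (1206 and 2372.5) and H3K4me3 peaks without H3K27me3 1527 bp (974 and 2080). The strongest H3K27me3 partner ran the other way, with medians of 4517 bp at fully covered, 1483.5 bp at summit-inside and 1098.5 bp at flanked peaks. H3K27me3 peaks inside an H3K4me3 peak were the narrowest, with a median of 460.5 bp, below the 605 bp of H3K27me3 peaks without H3K4me3. A wide peak offers more sequence to touch, and a narrow one is more easily covered whole, so these orders are descriptions of the lists. When peaks below the median rank were left out of both lists, the median bivalent H3K4me3 peak exceeded the others by 268 bp, while in the whole list the difference was -371 bp.

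**Figure D1:**
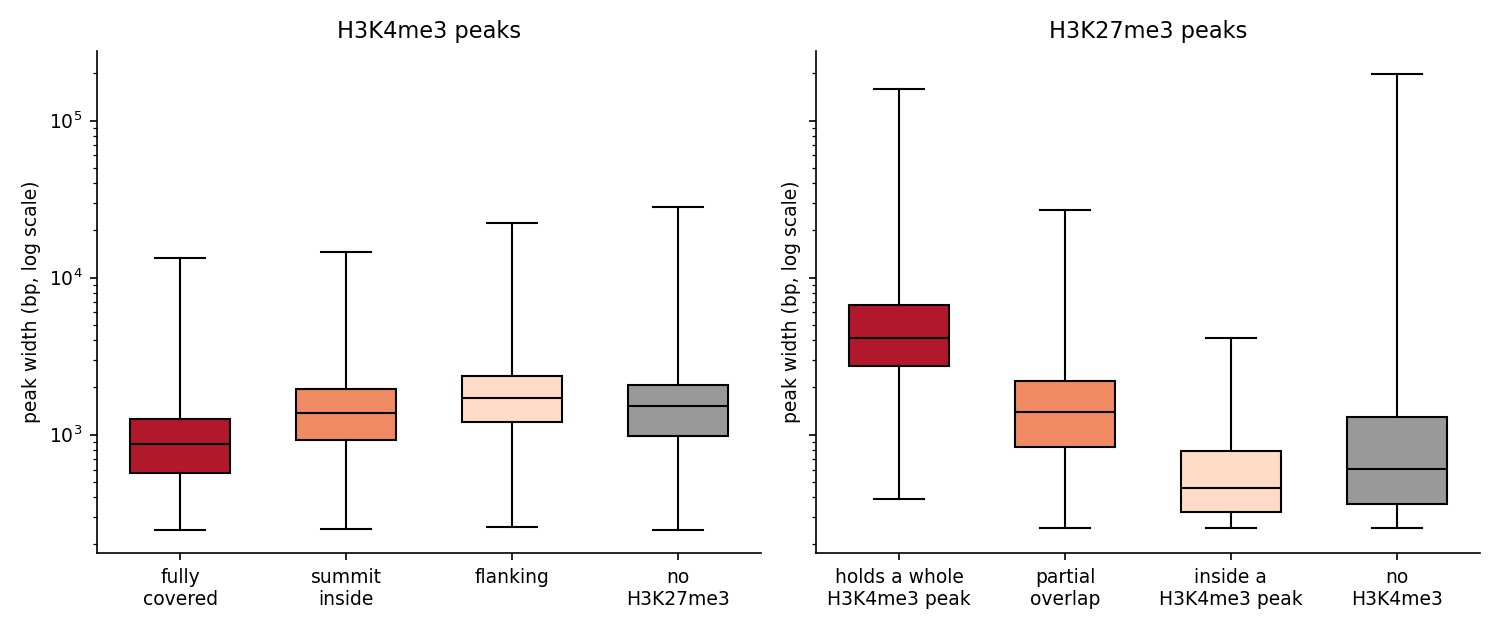
Peak widths in bp on a log scale for H3K4me3 peaks (left) by the form of their overlap with H3K27me3 and for H3K27me3 peaks (right) by the form of their overlap with H3K4me3. Boxes span the quartiles with the median as a line and whiskers reach the extremes; fully covered H3K4me3 peaks have a median of 878 bp, and H3K27me3 peaks that hold a whole H3K4me3 peak one of 4142 bp.

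Within each list, the share with the other mark followed the rank of the peak. Ranks are percentiles by the authors' -log10 q within 1 list, with 100 the strongest. The share of H3K27me3 peaks touching H3K4me3 was 4.47% at percentiles up to 10 and 69.3% (67.5 to 71.1) above percentile 90, where 56.8% held a whole H3K4me3 peak. By width it was 6.11% up to 500 bp, 39.9% between 2000 and 5000 bp, and 68.5% (60.8 to 75.6) between 20000 and 50000 bp. H3K4me3 peaks showed another order: the bivalent share was 36.8% at percentiles up to 10, 55.6% (53.2 to 58.0) between 30 and 40, and 4.55% (3.60 to 5.66) above 90. No H3K4me3 peak above percentile 80 was fully covered.

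By form, the median H3K4me3 percentile was 22.9 for fully covered, 38.9 for summit-inside and 48.8 for flanked peaks, against 61.3 for H3K4me3 peaks without H3K27me3. The median percentile of the H3K27me3 partner was 94.0, 79.0 and 69.98 in the same order of forms. By these medians, the more fully covered forms had weaker H3K4me3 peaks and stronger partners. Most bivalent H3K4me3 peaks lay below the median rank of their list. Keeping only the stronger 50% of each list left 727 bivalent peaks, of which 8.25% were fully covered.

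**Figure D2:**
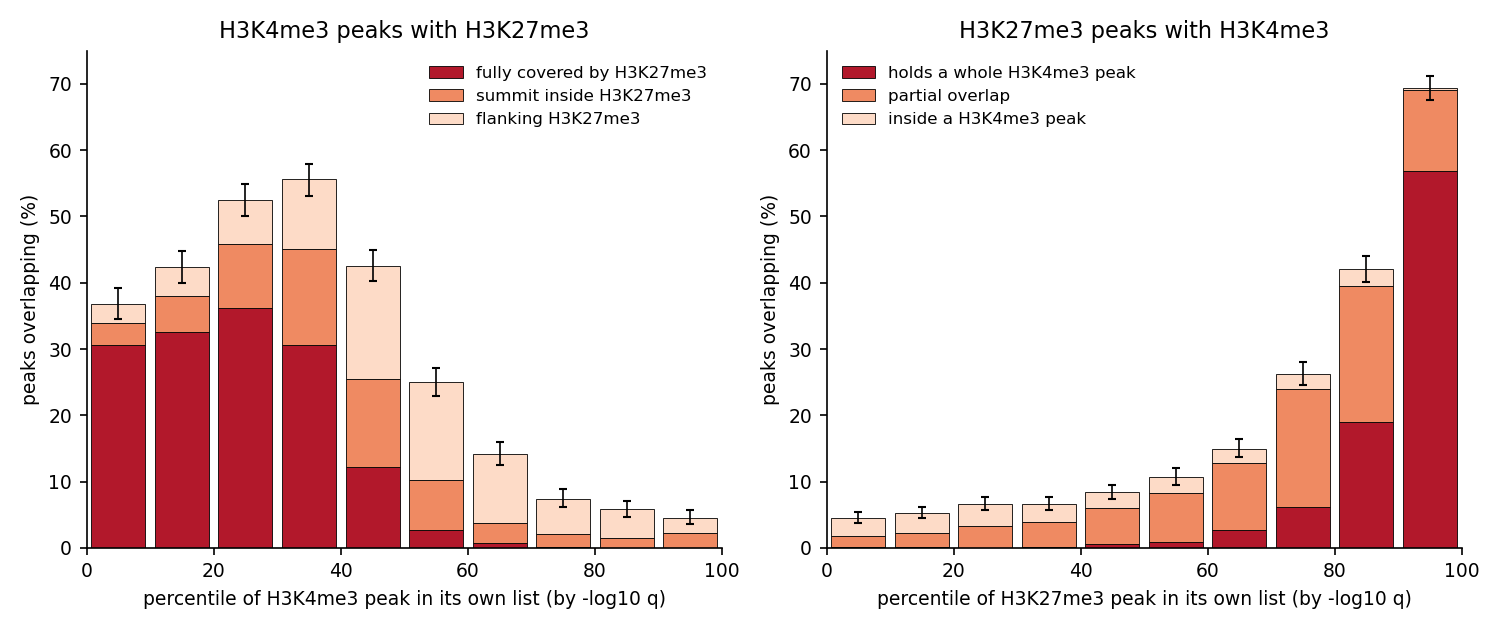
Share of H3K4me3 peaks with H3K27me3 (left) and of H3K27me3 peaks with H3K4me3 (right), in %, in bins of 10 percentiles of the peak's rank in its own list; colours divide each bar by the form of overlap and lines are 95% intervals of the whole bar. The left share is highest at 55.6% between percentiles 30 and 40, while the right share is highest above percentile 90 at 69.3%.

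At most of the genes with the highest ranks in both lists, the marks lay side by side. The 12 such genes lay at 9 H3K4me3 peaks, and at 7 of these peaks H3K27me3 crossed 1 edge and left the summit free. All 9 peaks ranked above percentile 90 of the H3K4me3 list, where no peak was fully covered. The choice by rank thus left no fully covered pair to be named. At Mto1 the H3K4me3 peak had 267-fold enrichment (percentile 98.3) and the H3K27me3 peak 97.3-fold (percentile 98.0), and 1.36% of the H3K4me3 peak was shared. Rsrc1, which encodes a splicing protein, had 251-fold H3K4me3 and 263-fold H3K27me3, the second at percentile 99.96 of its list, with 15.2% shared. At the start shared by Foxa3, an endoderm factor, and Sympk, a protein of mRNA polyadenylation, the values were 226-fold and 68.3-fold with 11.3% shared. Wdr20, Psmb3, a proteasome subunit, Rassf1, a tumour suppressor, and the neighbours Arl5c and Plxdc1 had between 1.10% and 27.1% shared. The exceptions were Il17rd, an inhibitor of fibroblast growth factor signalling, with 80.2% shared and the summit inside, and the start between Lias and Rpl9, where a 538 bp H3K27me3 peak lay in the interior. Rpl9 is a ribosomal protein gene, and its call is given as uncertain for the reason given below for Rpl34.

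The strongest H3K4me3 peaks of each form are named here among those at protein-coding gene starts. Over all fully covered peaks, at genes or not, the highest enrichment was 174-fold. Fully covered ones at genes were at Parp14, an ADP-ribosyltransferase, with 168-fold H3K4me3, at Fgfr3 with 153-fold, at Ezr, a linker of membrane and actin, with 151-fold, and at Ccbe1, a lymphatic growth factor cofactor, with 155-fold. With the summit inside they were at Egfr with 281-fold H3K4me3 over a 386 bp H3K27me3 peak of 3.25-fold, and at Rpl34, Naca and Eif3d, genes of the ribosome and translation, with 318-fold, 301-fold and 299-fold. The Egfr H3K27me3 peak was weak, at percentile 14.9 with a pileup of 11, where the lowest of its list was 9, and its call is uncertain. H3K27me3 at Rpl34, Naca and Eif3d was 385 to 400 bp wide and 14.4-fold to 17.1-fold enriched. Rpl34, Naca and Eif3d are given as uncertain, since genes of this kind are known to have processed pseudogenes, and a part of shared reads in these calls was not tested. Flanked ones were at Rassf3 with 299-fold, Notch1 with 281-fold, Nars, an aminoacyl-tRNA synthetase, with 280.0-fold, and Tmem39a with 217-fold, each over H3K27me3 of 4.07-fold to 5.96-fold.

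The position of H3K27me3 around gene starts was read in the H3K4me3 peaks that held starts of 1 strand only, with the direction of the gene known. These were 990 fully covered, 539 summit-inside, 741 flanked and 6321 other H3K4me3 peaks. At fully covered peaks, H3K27me3 lay over 76.2% of starts at 1000 bp upstream and 91.7% at 1000 bp downstream, and over 44.8% and 64.0% at 2000 bp. At summit-inside peaks it was most frequent 300 bp downstream, at 85.0%, and covered 52.9% of the starts themselves. It lay over 28.9% of these starts at 1000 bp upstream and 58.8% at 1000 bp downstream. At flanked peaks it covered 14.7% of starts, with 37.7% at 1000 bp upstream and 45.3% at 1000 bp downstream. H3K27me3 was thus more frequent 1000 bp downstream than 1000 bp upstream in all 3 forms, while at 3000 bp the flanked peaks had 13.1% upstream and 10.1% downstream. The H3K4me3 peaks, which H3K27me3 overlaps by definition of the forms, leaned the same way. At fully covered peaks H3K4me3 lay over 5.35% of starts at 1000 bp upstream and 24.4% at 1000 bp downstream. The shares were 11.1% and 55.3% at summit-inside peaks, and 15.5% and 62.8% at flanked peaks. In these shares by distance from the start, the lean of H3K27me3 cannot be told apart from that of H3K4me3.

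A downstream lean was also seen when H3K27me3 was placed against the edges of the H3K4me3 peak itself. Where H3K27me3 crossed 1 edge of a peak not fully covered, it was the downstream edge in 495 of 845 cases (58.6%, 55.2 to 61.9), with 237 of 407 (58.2%) on plus-strand and 258 of 438 (58.9%) on minus-strand genes. The share was 67.4% (62.1 to 72.3) at summit-inside and 52.8% (48.3 to 57.2) at flanked peaks, so the interval of the flanked peaks includes an even split. At fully covered peaks H3K27me3 reached farther downstream than upstream of the H3K4me3 peak in 586 of 990 cases (59.2%, 56.1 to 62.3), by a median of 1557.5 bp downstream and 1316 bp upstream. The other H3K4me3 peaks had H3K27me3 in 4.59% at 5000 bp upstream and 0.316% at 5000 bp downstream of the start.

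**Figure D3:**
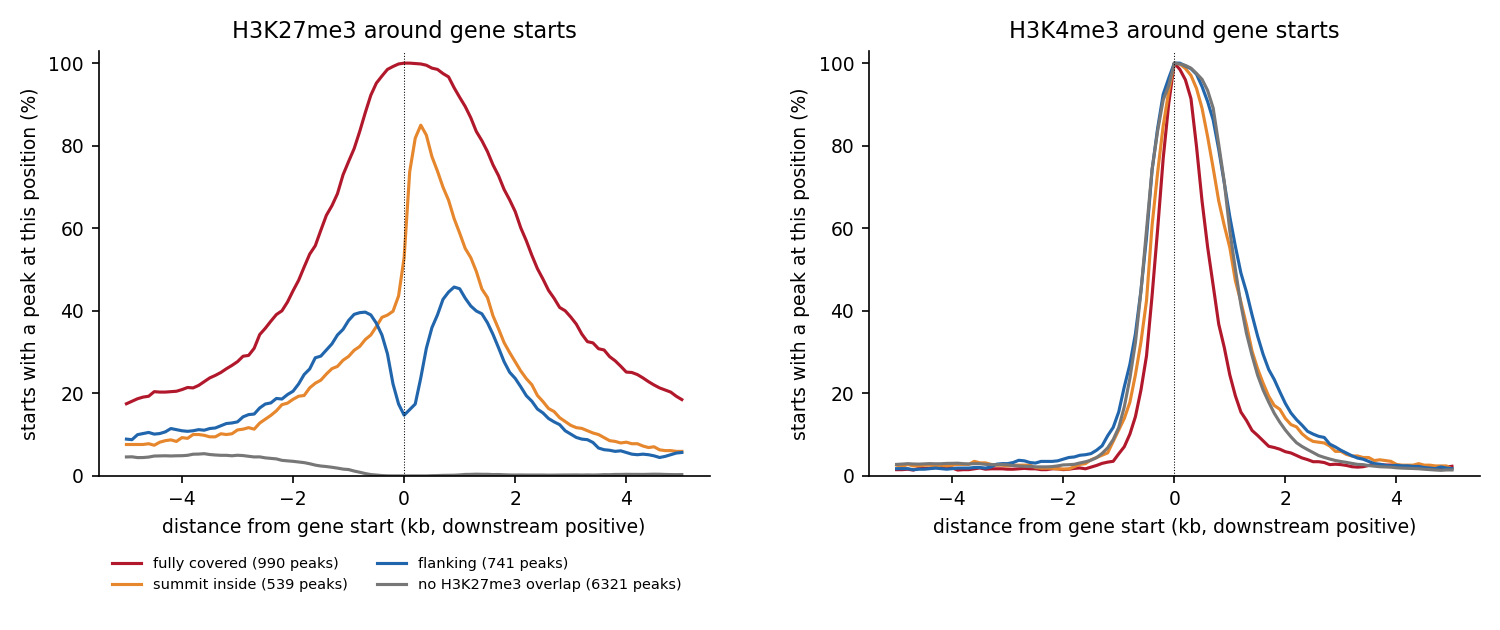
Share of gene starts, in %, with an H3K27me3 peak (left) or an H3K4me3 peak (right) at each distance in kb from the start, by the form of overlap; lines are single libraries, with no error. H3K27me3 dips to 14.7% at the start of flanked peaks and is highest 300 bp downstream, at 85.0%, of starts with the summit inside.

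Genes were classed by the peaks within 1000 bp of their start, or of either annotated end where the start was not known. Among 20665 protein-coding genes, 3353 were bivalent (16.2%, 15.7 to 16.7), 9206 had H3K4me3 alone (44.5%), 949 had H3K27me3 alone (4.59%), 239 had both marks without overlap (1.16%) and 6918 had neither (33.5%). Bivalent genes divided into 1510 with a fully covered H3K4me3 peak (7.31% of all genes), 788 with the summit inside (3.81%) and 1055 with flanking H3K27me3 (5.11%). They made up 26.2% (25.4 to 26.97) of the genes with H3K4me3 and 73.8% (72.5 to 75.1) of those with H3K27me3. Most genes classed with H3K27me3 thus also had overlapping H3K4me3. A gene counted as bivalent when a bivalent H3K4me3 peak touched its window, so the H3K27me3 peak itself could lie outside the window. H3K27ac, counted below in the gene lists, was present at 73.2% of all bivalent genes. By form it was present at 47.6% of fully covered, 90.7% of summit-inside and 96.8% of flanked ones. It touched every H3K4me3 peak above percentile 50, so its counts in a list also go with form and rank. Counts for gene lists are set below against the 16.2% of all genes, and no test was made, because the lists were written with earlier results of these data known. In stricter settings the share of all genes was lower, so differences in percentage points cannot be compared in size between settings. In the stronger 50% of both lists of peaks 706 genes were bivalent. A list with 0 bivalent genes stands at -3.42 percentage points there.

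The markers of the labelled cell type all had a called H3K4me3 peak. Of these 12 forebrain stem and progenitor markers, Pax6, Hes1, Emx2, Lhx2 and Nr2e1 were among the bivalent ones. Nes, Sox2, Vim, Fabp7, Hes5 and Slc1a3 had H3K4me3 alone. The H3K4me3 peak at Pax6 was weak, at 8.18-fold (percentile 12.1), and fully covered by a 33941 bp H3K27me3 peak of 78.6-fold. Of 6 microglia markers, 0 had H3K4me3. Of 6 endothelial markers only Kdr, a vascular growth factor receptor, had it, and it was bivalent. Of 5 neuronal markers on the chromosomes compared, Syt1 and Gad2 were bivalent, Snap25 had both marks without overlap, Slc17a6 had H3K27me3 alone and Rbfox3 had neither. Of 4 oligodendrocyte markers Mbp and Sox10 were bivalent and Mog and Mag had neither mark. Of 4 astrocyte markers 0 were bivalent, Aldh1l1 had H3K4me3 alone, Gfap had H3K27me3 alone, and Aqp4 and S100b had neither.

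Forebrain patterning factors, the transcription factors that divide the early forebrain into regions, were the list with the highest bivalent share in the whole lists of peaks, though not in the stronger 50%. Of 33 genes 31 were bivalent (93.9%, 79.8 to 99.3), and 26 of these were fully covered, under H3K27me3 peaks of median width 24674 bp. Barhl1 and Dbx1 had H3K27me3 alone. H3K27ac was present at 21 of the 31, against 73.2% of all bivalent genes and 47.6% of the fully covered ones. Dmrta2, a regulator of the cortical hem and cortical progenitors, had a 6134 bp H3K4me3 peak of 146-fold inside a 22797 bp H3K27me3 peak of 116-fold. The bivalent share less that of all genes was 17.8 percentage points in the stronger 50% of both lists of peaks and 0.306 when the overlap had to reach 50% of both peaks, against 77.7 as first counted. Of all genes 706 and 563 were bivalent in these settings, against 3353 as first counted, so the differences stand on a lower share of all genes.

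Forebrain regulators were also among the genes with the widest bivalent H3K4me3 peaks. Otx1, a regulator of cortex and midbrain, had 14512 bp of H3K4me3, with 66.6% covered. Six3, needed for the anterior forebrain and eye, had 13333 bp, all covered by a 27665 bp H3K27me3 peak. Sall3, a zinc finger factor, had 11810 bp with a 489 bp H3K27me3 peak in its interior, of 3.25-fold (percentile 14.9). Nr2f1, which sets the areas of the cortex, had 11568 bp with 88.6% covered.

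The widest H3K27me3 peaks lay over developmental loci and differed in the H3K4me3 peaks they held. The 4 Hox clusters, which give position along the trunk and hindbrain, had the 4 widest H3K27me3 peaks of the list. The peak over HoxC was 199307 bp wide, that over HoxA 158612 bp, that over HoxB 138394 bp and that over HoxD 134067 bp. HoxA held 2 H3K4me3 peaks and the other 3 clusters held 0. Of 39 Hox genes 38 had H3K27me3 alone.

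Some of the next widest peaks held many H3K4me3 peaks. The domain over Zic1 and Zic4, paired factors of dorsal neural tissue, was 73388 bp wide and held 8, and the 62802 bp domain over Nr2f2, a factor of the ventral and caudal forebrain, also held 8. The 33941 bp domain over Pax6, the 24275 bp domain over Sp8 and the 21090 bp domain over Ebf3 held 5 each. Pax6 and Sp8 pattern the cortex and Ebf3 acts in differentiating neurons. At Pax2 and Tfap2a, regulators of midbrain and kidney and of neural crest, domains of 50974 and 50741 bp held 3 H3K4me3 peaks each, and the peak at the start had 6.39-fold and 5.62-fold enrichment. Gata4, a heart and endoderm factor, had 48645 bp of H3K27me3 and no H3K4me3 peak.

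Neuronal factors were bivalent with weak H3K4me3. Of 33 proneural and neuronal factors 24 were bivalent (72.7%, 54.5 to 86.7), 20 of them fully covered, with a median H3K4me3 percentile of 22.7 and a median H3K27me3 percentile of 99.3. H3K27ac was present at 7 of the 24, against 73.2% of all bivalent genes and 47.6% of the fully covered ones. Neurog1, Neurog2, Neurod1 and Eomes, factors of neuron formation, were all fully covered and without H3K27ac. Prox1, a factor of neuronal and lymphatic fate, stood apart with 202-fold H3K4me3 and flanking H3K27me3 of 88.9-fold. Ebf3 had 109-fold H3K4me3, Insm1, which drives basal progenitors, had 80.5-fold, and Bcl11b, a factor of corticospinal neurons, had 132-fold. Tbr1, Lhx6, Lhx8, Lhx3, Ptf1a, Tlx1 and Neurog3 had H3K27me3 alone, and Neurod4 had H3K4me3 alone. The bivalent share less that of all genes was 2.64 percentage points in the stronger 50% of both lists of peaks and 0.306 with an overlap of 50% of both peaks, against 56.5 as first counted. As for the patterning factors, the share of all genes was lower in these settings.

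Regulators of mesoderm and endoderm were divided between bivalent and H3K27me3 alone. Of 47 genes 19 were bivalent (40.4%, 26.4 to 55.7), 23 had H3K27me3 alone, and 18 of the 19 were fully covered. Foxc1, a mesenchymal factor, had 61.1-fold H3K4me3, and Foxf1 and Foxc2, factors of lateral mesoderm and of vessels and axial skeleton, had 35.0-fold and 20.4-fold, within H3K27me3 of 138-fold to 197-fold. Foxa3 alone was flanked. Tbx6 and Mesp2, which pattern somites, had H3K4me3 alone at 23.5-fold and 5.11-fold. Among the genes with the strongest H3K27me3 and no H3K4me3 were Spag6 at 283-fold and Uncx, a homeobox regulator, at 281-fold. In the stronger 50% of both lists of peaks, the bivalent share of the mesoderm and endoderm list less that of all genes was -1.29 percentage points, against 24.2 in the whole lists. Few genes set the sign of the first value.

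Most of the listed genes of 3 signalling pathways were bivalent. Of 44 Wnt pathway genes 35 were bivalent (79.5%, 64.7 to 90.2). Of the 19 Wnt ligands 13 were bivalent, of which 12 were fully covered and 3 had H3K27ac, and Wnt1, Wnt3a, Wnt8a, Wnt8b and Wnt10b had H3K27me3 alone. All 10 Frizzled receptors were bivalent, of which 2 were fully covered and 7 flanked, and all 10 had H3K27ac. The median H3K4me3 percentile was 25.4 for the bivalent ligands and 56.5 for the receptors, and the median H3K27me3 percentile was 98.0 and 77.3. Wnt5a, the exception among ligands, had 169.7-fold H3K4me3 over 7971 bp with the summit inside H3K27me3 of 10.0-fold. Fzd1, Fzd2 and Fzd5 had 182-fold, 157-fold and 135-fold H3K4me3 with H3K27me3 of 4.88-fold, 5.15-fold and 16.8-fold. Axin2, a feedback inhibitor induced by Wnt, had H3K4me3 alone at 201-fold.

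Of 34 Tgf-beta and Bmp genes 18 were bivalent (52.9%, 35.1 to 70.2), 12 of them fully covered. Bmp7, Inhbb and Tgfb2, all ligands, had 137-fold, 95.8-fold and 93.5-fold H3K4me3, and Smad7, an inhibitor of the pathway, had 94.0-fold. The receptors Bmpr2, Bmpr1a, Bmpr1b and Acvr1 had H3K4me3 alone, at 225-fold for Bmpr2 and 184-fold for Bmpr1a. Bmp4, Bmp8b, Lefty1 and Lefty2 had H3K27me3 alone. In the stronger 50% of both lists of peaks, the bivalent share less that of all genes was -0.475 percentage points, where few genes set the sign.

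In the Fgf and Shh list 22 of 38 genes were bivalent (57.9%, 40.8 to 73.7), 15 of them fully covered. Ligands such as Fgf8, Fgf9, Fgf10 and Shh were fully covered and without H3K27ac. The receptors differed among themselves, since Fgfr3 had 153-fold H3K4me3 and was fully covered, Fgfr2 had 146-fold with 26.1% covered, and Fgfr1 had H3K4me3 alone at 194-fold. Ptch1, the Shh receptor, had 206-fold H3K4me3 over 6285 bp, with 0.636% of it under H3K27me3 at 1 edge. Gli3, a transcription factor of the pathway, had 144.6-fold H3K4me3 with 47.7% covered, and its H3K27me3 was 4.61-fold. Spry4 and Dusp6, feedback inhibitors induced by Fgf, had H3K4me3 alone at 225-fold and 223-fold.

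Most of the listed genes of axon guidance, transmission and ion channels were bivalent. Of 41 axon guidance genes 32 were bivalent (78.0%, 62.4 to 89.4), with 11 fully covered, 9 with the summit inside and 12 flanked, and 27 of the 32 had H3K27ac. The ligands Ntn4 and Ntn1 had 189.9-fold and 187-fold H3K4me3, the receptors Dcc and Robo1 had 177-fold and 117-fold, and Plxna2 and Sema6a had H3K4me3 alone at 289-fold and 260.1-fold. Of 29 genes of GABAergic and glutamatergic neurons 22 were bivalent (75.9%, 56.5 to 89.7). The transmitter enzymes Gad1 and Gad2 and the transporters Slc32a1 and Slc17a7 were fully covered without H3K27ac, whereas the receptor subunits Gabra2 and Grik2 each had 132-fold H3K4me3 with flanking H3K27me3.

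Of 40 potassium and calcium channel genes 30 were bivalent (75%, 58.8 to 87.3), 17 of them fully covered. Kcnq5, a subunit of the M channel, had 182-fold H3K4me3 with 33.7% covered. Cacna1b and Cacna1c, subunits of N-type and L-type calcium channels, had 136-fold and 80.9-fold, and Kcnc1 and Kcna2 had H3K4me3 alone at 177-fold and 176-fold. In the list of neuronal cytoskeleton and synapse genes 12 of 22 were bivalent (54.5%, 32.2 to 75.6), among them Nlgn1, a synaptic adhesion protein, with 129.8-fold H3K4me3. Nefm, a neurofilament protein, and Shank2, a synaptic scaffold, had 63.9-fold and 60.6-fold with flanking H3K27me3. Map2 and Vamp2, proteins of dendrites and synaptic vesicles, had H3K4me3 alone.

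Bivalent genes of the stem and progenitor state mostly had strong H3K4me3. Of 33 genes 21 were bivalent (63.6%, 45.1 to 79.6), with a median H3K4me3 percentile of 80.6 against 38.1 for all bivalent genes, and all 21 had H3K27ac. Only Lrp2, Hopx and Pax6 were fully covered, 10 had the summit inside and 8 were flanked. The H3K4me3 percentiles of Lrp2, Hopx and Pax6 were 52.7, 46.2 and 12.1. Ccnd2, a cyclin of progenitors, had 211-fold H3K4me3 over 7685 bp with H3K27me3 of 11.9-fold over 74.1% of it. Hes1, a Notch target, had 198-fold with 20.1-fold H3K27me3, Id3, which blocks differentiation, had 261-fold with 6.78-fold, and Hmga2, a chromatin protein of young progenitors, had 188-fold with 6.23-fold. Nfib and Vim had H3K4me3 alone at 296-fold and 276-fold. The H3K27me3 at these genes was of middling rank, with a median percentile of 66.9 against 86.3 for all bivalent genes.

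The genes of the Polycomb and Trithorax machinery were themselves bivalent in part, and only on flanks or with the summit inside. Of 33 genes 11 were bivalent (33.3%, 17.96 to 51.8), of which 9 were flanked, 2 had the summit inside and 0 were fully covered, and all 11 had H3K27ac. Cbx2 and Cbx8, genes for readers of H3K27me3, had 221-fold and 169-fold H3K4me3 beside H3K27me3 of 52.3-fold and 109.5-fold, with 27.2% and 35.1% shared. Pcgf1, of a variant Polycomb complex, had 108-fold H3K4me3 and 197-fold H3K27me3 with 22.2% shared. Ezh2, Eed and Suz12, the core of Polycomb repressive complex 2, had H3K4me3 alone, as did Kmt2a, Kmt2b, Kmt2c and Kmt2d, the MLL methyltransferases. When the overlap had to reach 50% of the smaller peak, the bivalent share less that of all genes was -1.59 percentage points.

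Bivalent cell cycle inhibitors were mostly flanked. Of 20 genes 9 were bivalent (45.0%, 23.1 to 68.5), 7 of them flanked. Cdkn2a, the locus of p16 and p19Arf and a known Polycomb target, had 179-fold H3K4me3 with a 29818 bp H3K27me3 peak of 121-fold over 48.6% of it. Its neighbour Cdkn2b had 153-fold with 6.50-fold H3K27me3, and Gadd45g and Gas1, which restrain growth, had 168-fold and 183-fold. Cdkn1b and Btg2 had H3K4me3 alone at 194-fold and 210.2-fold. Genes that drive the cycle differed: all 34 cell cycle and replication genes had H3K4me3 alone (0 bivalent, with an upper 95% limit of 10.3%), with Cdc45 and Ccnb1 at 273-fold and 263-fold.

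All 30 genes of mitochondrial respiration had H3K4me3 alone (0 bivalent, with an upper 95% limit of 11.6%), with Cox6c at 299-fold and Uqcrc2 at 280.3-fold, and 1 of 44 Nduf genes was bivalent. Of 34 genes of acyl-CoA metabolism and histone acylation 5 were bivalent (14.7%, 4.95 to 31.1), a share near that of all genes. These were Mllt3, a YEATS-domain reader of acylated histones, with 213-fold H3K4me3 and 10.6-fold H3K27me3, Cdyl and Cdyl2, of which Cdyl is known to hydrate crotonyl-CoA, with 147-fold and 164-fold, and the deacylases Sirt1 and Hdac3. In the stronger 50% of both lists of peaks, the share less that of all genes was 5.41 percentage points, against -1.52 in the whole lists.

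Bivalent ribosomal protein genes mostly had the summit inside. Of 77 genes 34 were bivalent (44.2%, 32.8 to 55.9), and 31 of these had the summit inside and 0 were fully covered. Their median H3K4me3 percentile was 95 and their median H3K27me3 width 380 bp, and all 34 had H3K27ac. They are given as uncertain, since ribosomal protein genes are known to have many processed pseudogenes, and a part of shared reads in these calls was not tested. Of 38 proteasome genes 3 were bivalent.

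The glial lists were bivalent in part. Of 19 oligodendrocyte lineage genes 10 were bivalent (52.6%, 28.9 to 75.6). Olig2, which specifies the lineage, had 237-fold H3K4me3 over 9210 bp with a 1116 bp H3K27me3 peak of 4.88-fold in its interior. Pdgfra, the receptor of oligodendrocyte precursors, had 70.5-fold with 95.3% under H3K27me3 of 125-fold. Olig1, the neighbour of Olig2, had H3K4me3 alone at 204.9-fold. Of 17 astrocyte genes 4 were bivalent (23.5%, 6.81 to 49.9), with Fgfr3 fully covered. Gja1, a gap junction protein, had 120.35-fold H3K4me3 with 10.2% covered, under H3K27me3 of 4.61-fold. Gfap and Gjb6 had H3K27me3 alone.

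Genes of cells outside the neural lineage were mostly without H3K4me3. Of 20 microglia and blood genes 0 were bivalent (upper 95% limit 16.8%), 3 had H3K27me3 alone and 14 had neither mark, and 18 of 22 liver and gut genes had neither mark. Lgr5, a receptor of intestinal stem cells, was the 1 bivalent gene of the liver and gut list, with 19.1-fold H3K4me3 inside 13013 bp of H3K27me3. The endothelial and pericyte list differed, with 8 of 20 genes bivalent (40%, 19.1 to 63.9), 7 of them fully covered: Kdr had 90.6-fold H3K4me3, Erg 31.7-fold, Flt1 27.8-fold and Kcnj8 20.4-fold. In the stronger 50% of both lists of peaks its share less that of all genes was -3.42 percentage points, the value of a list with 0 bivalent genes. Of 24 pluripotency and germ line genes 7 were bivalent (29.2%, 12.6 to 51.1), led by Esrrb with 149.7-fold and Klf5 with 139-fold H3K4me3, while Pou5f1 had H3K27me3 alone. Of 31 collagen and matrix genes 19 were bivalent (61.3%, 42.2 to 78.2), led by Fn1 with 102.8-fold and Vcan with 99.0-fold.

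The order of the lists changed when only the stronger 50% of both lists of peaks was kept, where 706 genes in all were bivalent. The share of a list less that of all genes was then 32.9 percentage points for neural stem and progenitor genes, 23.4 for axon guidance and 20.8 for Polycomb and trithorax genes. It was 12.5 for Wnt, 12.4 for Fgf and Shh, and 11.6 for cell cycle inhibitors. It came to 8.35 for astrocyte and 7.11 for oligodendrocyte lineage genes, to 4.08 for potassium and calcium channels, 3.48 for GABAergic and glutamatergic genes, 3.04 for collagens and matrix, and 1.13 for the neuronal cytoskeleton and synapse.

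**Figure D4:**
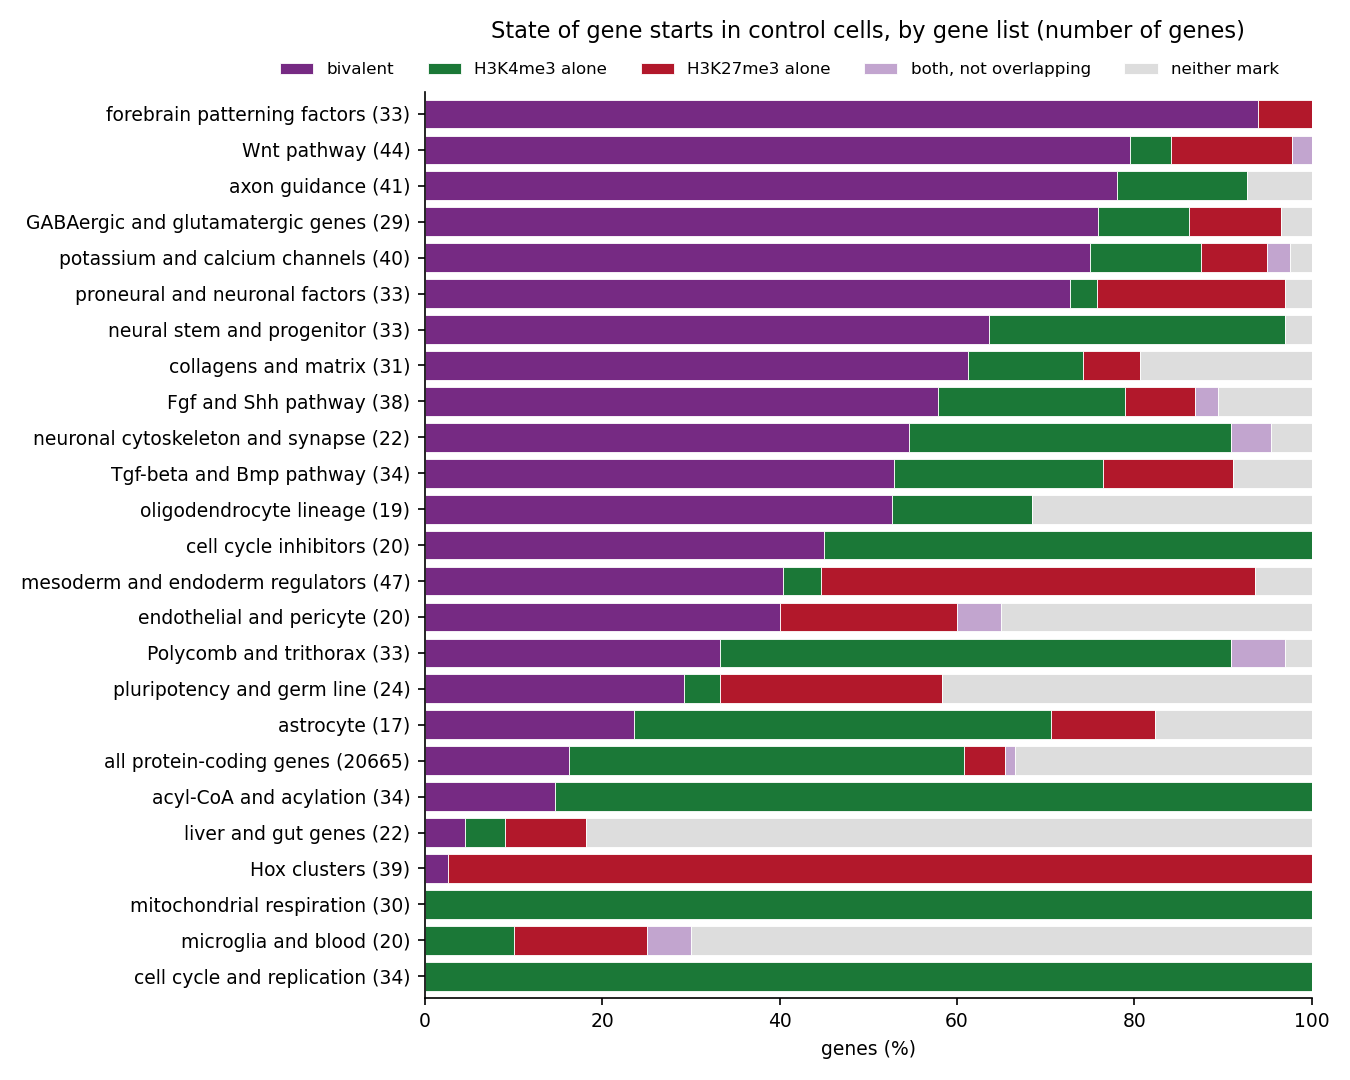
Share of genes in each state, in %, for each gene list and for all protein-coding genes on chromosomes 1 to 19, ordered by the bivalent share, with the number of genes in brackets. Forebrain patterning factors are at the top with 93.9% bivalent, all genes stand at 16.2%, and the Hox clusters are almost wholly H3K27me3 alone.

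H3K27ac, a mark of active promoters and enhancers that sits on the same residue as H3K27me3, divided the forms of overlap. It touched 1042 of 2433 fully covered H3K4me3 peaks (42.8%, 40.9 to 44.8), 910 of 1042 summit-inside peaks (87.3%, 85.2 to 89.3) and 1240 of 1316 flanked peaks (94.2%, 92.8 to 95.4), against 96.8% (96.5 to 97.1) of H3K4me3 peaks without H3K27me3 and 88.2% of all H3K4me3 peaks. Fully covered peaks also had lower H3K4me3 ranks, so the shares were read within bins of rank. At percentiles up to 25 they were 20.7% for fully covered, 59.0% for summit-inside and 71.8% for flanked peaks, against 86.4% for peaks without H3K27me3. Between percentiles 25 and 50 they were 68.4%, 92.3% and 94.7%, against 97.8%. Above percentile 50 every peak of every form touched H3K27ac, so the difference between forms was seen below that rank. The fully covered form had 60 peaks there, the highest at percentile 72.4. Width was not held alike, with medians of 878 bp for fully covered and 1724.5 bp for flanked peaks. A wide peak offers more sequence to touch, and the part of width was not tested.

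H3K9cr showed smaller differences. It touched 93.1% (92.0 to 94.0) of fully covered, 98.8% of summit-inside and 99.9% of flanked peaks, against 99.4% of H3K4me3 peaks without H3K27me3 and 98.5% of all. A fully covered H3K4me3 peak thus carried H3K9cr more often than H3K27ac. At gene starts, H3K27ac was present at 73.2% (71.7 to 74.7) of bivalent genes, 98.9% of genes with H3K4me3 alone and 5.80% of genes with H3K27me3 alone. By form it was 47.6% of genes with a fully covered, 90.7% with a summit-inside and 96.8% with a flanked peak. Of the H3K27me3 peaks without H3K4me3, 5.92% touched H3K27ac and 7.40% touched H3K9cr.

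The lists from sister cultures given crotonate hold the same marks and were used to see which overlaps were called again, although the treatment differed and they are no replicate. Per the labels, the vendor of the antibody differed between treatments for both marks while the catalogue number did not. In the crotonate lists 96.1% (95.3 to 96.9) of the fully covered peaks were again bivalent, 70.2% (67.4 to 73.0) of the summit-inside peaks and 50.6% (47.9 to 53.3) of the flanked peaks, against 0.746% of the H3K4me3 peaks that were not bivalent in control. The H3K4me3 peak itself was called again in 98.2%, 99.0% and 99.2% of the 3 forms. H3K27me3 peaks that held a whole H3K4me3 peak were called again in 98.6% (98.0 to 99.0), but those that lay inside one in 19.7% (16.6 to 23.1), against 73.4% of H3K27me3 peaks without H3K4me3. These shares moved with the rank of the H3K27me3 partner, which was called again for 12.8% of bivalent peaks with the partner up to percentile 25 and 98.0% with it above percentile 75.

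**Figure D5:**
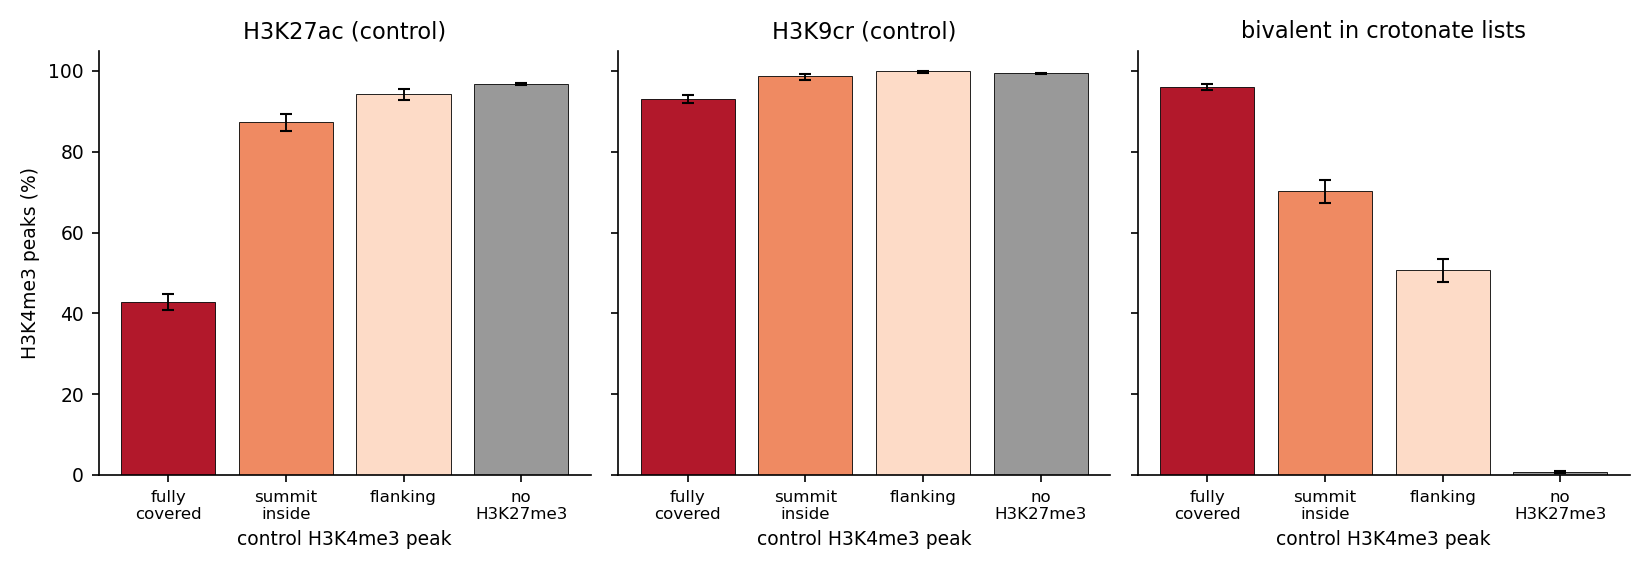
Share of control H3K4me3 peaks, in %, that touched H3K27ac (left) or H3K9cr (middle) in control cells, or a bivalent peak in the crotonate lists (right), by the form of overlap with H3K27me3; lines are 95% intervals. H3K27ac is lowest at fully covered peaks with 42.8%, and bivalency was called again most often at these peaks with 96.1%.

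Promoter base composition, which the choice of peaks did not use, differed between states. It was read in the 300 bases from 250 before to 50 after the start of 16457 genes with a RefSeq promoter. The median ratio of observed to expected CpG was 0.718 in 2537 bivalent promoters, 0.802 in 7571 promoters with H3K4me3 alone, 0.375 in 655 with H3K27me3 alone and 0.167 in 5526 with neither mark, against 0.595 over all. Bivalent promoters were thus close to those with H3K4me3 alone and unlike those with H3K27me3 alone. By form the median was 0.692 for fully covered, 0.708 for summit-inside and 0.773 for flanked peaks. The 22 Hox promoters in the table, nearly all with H3K27me3 alone, had a median of 0.594.

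Short motifs were counted on both strands in the same 300 bases. CGCG was found in 74.4% of bivalent promoters, 76.4% with H3K4me3 alone and 35.4% with H3K27me3 alone, against 50.7% of all. GGGCGG, the core of the GC box, was found in 69.96%, 67.4% and 39.4% in the same order, against 47.3% of all, and TATAAA in 7.25%, 6.19% and 13.1%, against 13.53% of all. GGGCGG and CGCG can share bases, and all of these shares go with the CpG content given above. In the printed 250 bases, CGCG occurred 3 times at Mto1, 1 time each at Egfr and Notch1, and 0 times at Fgfr3 and Spag6.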

How the data were processed

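The labels name 10 libraries of native chromatin immunoprecipitation, with 8 peak lists. The control H3K4me3 and H3K27me3 lists were compared, with 4 more lists as further readouts. The inputs were not used here. Per the submitters' processing notes the tools and build were Bowtie2 2.4.1, MACS2 2.2.7.1 and GRCm38. Not given in the sources used here are the calling settings and whether an input served as background. Columns are those of MACS2 peak tables, per the file headers, with 1 library in each list. The deposited values are the peak length in bp, the pileup, a coverage signal at the summit, the fold enrichment, a ratio to background, and the −log10 of the p-value and of the q-value, all made by the authors. Read depth is unknown; the lowest background pileup implied by pileup and fold was 2.91 for H3K4me3 and 2.69 for H3K27me3.

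Positions were taken as the files give them. Overlap needed 1 bp on chromosomes 1 to 19. Percentiles use −log10 q within 1 list, since scores of different libraries cannot be compared. Where a peak had several partners, the one of highest −log10 q gave its values. Gene windows reached 1000 bp either side of the RefSeq start on GRCm38.p6 (16457 of 20665 genes, 79.6%) or of both annotated ends for the others. The overlap functions were tested on simulated peaks. Python 3.11.15, numpy 2.4.6, pandas 2.3.3, scipy 1.17.1 and matplotlib 3.10.9 were used.

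The members and the 24 gene lists were chosen with earlier results of these data known. Named genes are the 12 bivalent genes with the highest lower percentile of their 2 marks, up to 4 bivalent and 2 H3K4me3-only genes per list by rank, the 4 strongest per form of overlap, the 5 widest for each mark, and the 4 strongest with H3K27me3 alone. Some genes that these rules pick are not reported here. Other genes, such as list members given by state and genes at the widest H3K27me3 peaks, were named after their values were seen, and Spag6 was chosen for its sequence as a contrast. Alternatives covered the peak threshold, the overlap needed, merging of H3K27me3 peaks, the gene window and the rank measure.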

Additional observations from a re-analysis of the deposited data

Results flagged for a closer look

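Chromosome X lies outside the chromosomes compared above. On it 125 of 603 control H3K4me3 peaks were bivalent (20.7%, 95% interval 17.6 to 24.2), against 28.7% (28.0 to 29.4) on chromosomes 1 to 19 together, and the intervals do not overlap. The autosomes with the lowest shares were chromosome 17 at 23.7% (20.8 to 26.8) and chromosome 16 at 24.3% (20.8 to 28.2), whose intervals overlap that of X. The share on X was listed because it is a signal outside the main comparison. Of the 125 peaks, 53 were fully covered (42.4%, 33.6 to 51.6), 28 had the summit inside and 44 were flanked. Of the 693 H3K27me3 peaks on X, 127 touched H3K4me3 (18.3%, 15.5 to 21.4), and their median width was 1435 bp.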

How the results depend on the processing

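Alternatives were set beside 10 values: 4791 bivalent H3K4me3 peaks, 4920 touching H3K27me3 peaks, 50.8% fully covered, the median width of bivalent less other peaks (-371 bp for H3K4me3, 1498.5 bp for H3K27me3), the same difference in median percentile (-29.3 and 41.9), 66.6% of bivalent peaks with H3K27ac, 3353 bivalent genes, and 75 bivalent developmental regulators in the lists. With the stronger 50% of each list these became 727, 831, 8.25%, 268 bp, -200 bp, -31.2, 11.5, 100%, 706 and 10, so both width differences turned round. With an overlap of 50% of both peaks they became 711, 711, 30.4%, -32 bp, 891 bp, -13.6, 30.3, 85.8%, 563 and 2. With 50% of the smaller peak, 60.1% were fully covered, the width differences were -441 and 1907.5 bp, the H3K27me3 percentile difference was 44.9, and 62.1% had H3K27ac. With −log10 q of at least 5, the fully covered share was 55.7%, the H3K27me3 width difference 1200.0 bp, the percentile differences -30.2 and 36.9, and the H3K27ac share 64.8%. With peaks within 1 kb counted as touching, the values were 45.0%, 1135 bp, 37.3 and 69.6% for cover, H3K27me3 width, H3K27me3 percentile and H3K27ac. With H3K27me3 peaks within 3 kb merged, they were 64.6% for cover, 2036.5 bp for H3K27me3 width and 40.1 for H3K27me3 percentile. The H3K27me3 percentile difference was 39.6 by fold and 40.2 by pileup. The cause of these moves was not tested. The bivalent share of a list less that of all genes turned round in 7 cases: with the stronger 50%, for mesoderm and endoderm (-1.29 percentage points), Tgf-beta and Bmp (-0.475), acyl-CoA (5.41) and endothelial genes (-3.42), with 50% of the smaller peak for Polycomb and trithorax (-1.59), and with 50% of both for mesoderm and endoderm (-2.72) and Polycomb and trithorax (-2.72). The share of all genes differs between settings, and a list with 0 bivalent genes stands at -3.42 in the stronger 50% and -2.72 with 50% of both. In lists of this size few genes thus set the sign, and no interval is given for it. Of the other values of lists, 35 lay outside the 95% binomial interval of the value as reported and 198 inside it. That interval is wide for small lists, and values inside it include cell cycle inhibitors at 11.6 with the stronger 50%, against 28.8 as reported. Windows on both ends of every gene, or on genes with a known start only, were added after seeing the data.

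No paired analysis was possible because there was 1 library per mark and treatment, and there was no replicate to leave out. Unknown depth limits the weak peaks: the calling limit was near q = 0.05, and a gene without a called peak is not shown to lack the mark. Splitting of broad domains sets how many H3K27me3 peaks are counted.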

Other observations

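Further families, counted without a test, differed in the bivalent share around the 16.2% of all genes. Potassium channel genes of the Kcn family were bivalent in 51 of 91 cases (56.0%, 45.2 to 66.4), 30 of them fully covered. Fox factors were bivalent in 22 of 41 cases, Dlx and Msx factors in 8 of 9, and Gata factors in 4 of 5, and those of the last 2 families were all fully covered. Of the 9 Pax genes 3 were bivalent and 6 had H3K27me3 alone. Eph receptors and ephrins, which guide cells and axons by contact, were bivalent in 15 of 21 cases, and the other 6 had H3K4me3 alone.

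Larger families were counted in the same way. Zinc finger genes named Zfp were bivalent in 23 of 360 cases (6.39%, 4.09 to 9.43) and had H3K4me3 alone in 289. Solute carriers were bivalent in 74 of 324 cases (22.8%, 18.4 to 27.8), and clustered protocadherins, the adhesion proteins that give neurons their identity, in 10 of 67. Cytochrome P450 genes were bivalent in 8 of 93 cases, olfactory receptors in 1 of 1100 and vomeronasal receptors in 0 of 352, which allows a share of up to 1.04% by the exact interval. By chromosome, the bivalent share of H3K4me3 peaks ranged between 23.7% (20.8 to 26.8) on chromosome 17 and 32.0% (28.5 to 35.7) on chromosome 15.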
